A study of Mus musculus with 12 samples.

Results

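The clustered protocadherins are 58 genes that lie side by side on mouse chromosome 18, with 14 genes in the alpha cluster, 22 in the beta cluster and 22 in the gamma cluster. They were chosen by gene symbol, as the genes named Pcdha, Pcdhb or Pcdhg with a member number, and were looked up by Ensembl gene identifier among the 30073 genes that had a DNA methylation level in at least 1 library. A level was found for 50 of the 58. The other 8, Pcdhb4, Pcdhb6, Pcdhb8, Pcdhb9, Pcdhb13, Pcdhb14, Pcdhb19 and Pcdhb21, had no level in any library and are not described further.

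Protocadherins of these clusters are adhesion proteins of the cell surface, and the mix of isoforms that a neuron expresses helps it to tell its own branches from those of other neurons. Each alpha or gamma gene has a variable first exon with its own promoter, which is spliced to constant exons shared by the whole cluster, whereas a beta gene stands alone and lacks the constant exons. Most isoforms are alternates that are switched on at random in single neurons, which depends on the boundary factor CTCF and on cohesin, and the promoters of silent alternates carry DNA methylation that the de novo methyltransferase Dnmt3b lays down in the early embryo. The 5 C-type isoforms, Pcdhac1, Pcdhac2, Pcdhgc3, Pcdhgc4 and Pcdhgc5, lie at the 3′ ends of the alpha and gamma clusters and are controlled differently from the alternates.

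Levels came from reduced representation bisulfite sequencing (RRBS). In this assay, MspI fragments rich in CpG sites are treated with bisulfite and a cytosine still read as C counts as methylated. The 12 libraries, all of strain C57BL6, formed 6 groups of 2. These were embryonic stem cells of a female line or lines (ESCs), stem cells derived from parthenogenetic embryos (pESCs, made from activated oocytes and so without a paternal genome), primordial germ cells (PGCs, the embryonic precursors of eggs and sperm) at embryonic day 9.5 (E9.5) and at E12.5, and PGC-like cells (PGCLCs) induced in culture from either kind of stem cell, by 2 days with bFGF and Activin A and then 4 days with BMP4, SCF, EGF and leukaemia inhibitory factor. According to the study's methods the stem cell lines carried an Actin-GFP transgene and the PGCs were taken from the gonads of female embryos, sorted by flow cytometry for CD61 and SSEA1 or with magnetic beads for SSEA1. The labels give no line numbers, so it is not known whether the libraries of a group share a line, and a difference between ESCs and pESCs cannot be told apart from one between lines. The labels do not say whether replicates came from separate cultures or embryos, and p-values measure only the spread between these libraries.

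Levels were listed for between 144375 and 166476 features per library, and between 114 and 123 of these belonged to clustered protocadherins. Replicates differed most between the ESC libraries, whose means over all common features were 25.88% and 21.26%, and no other replicate pair was more than 0.86 points apart. The label of the pESCs was checked at promoters that are methylated on the maternal copy. Snrpn had 34.5% and 44.8% in ESCs and 82.8% and 83.2% in pESCs, and Mest had 6.73% and 6.76% in ESCs and 47.6% and 44.7% in pESCs. Peg10 had 3.25% and 3.52% in ESCs and 38.9% and 34.6% in pESCs. Each was higher in pESCs, and the check covers this direction alone. In ESCs, Mest and Peg10 were low, and their pESC levels stayed well below that of Snrpn.

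On GRCm38 and on the plus strand, the alpha cluster spans positions 36930184 to 37187661, the beta cluster 37264938 to 37524479 and the gamma cluster 37661793 to 37841873. The methylation level of a feature was the share of its CpG calls that were methylated, given once per gene for the promoter, the 5′ untranslated region (UTR), the exons, the introns and the 3′UTR. In all, 124 protocadherin features had a level in at least 1 library and 111 in all 12. Exons were the class that covered the clusters, with 46 of 50 in all 12 libraries. The 4 others were beta exons, so that 10 of the 14 beta genes with a level enter the cluster means. Only 5 promoters had a level in every library, those of Pcdhac1, Pcdhga4, Pcdhga9, Pcdhgc3 and Pcdhgc4, and no beta promoter did. The comparison of the clusters therefore rests on exons. An alpha or gamma exon level can take in the constant exons of its cluster, which beta genes lack. The clusters are therefore not compared on the same parts of a gene.

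Several of these values were the same measurement listed under more than 1 gene. The exons of Pcdha6, Pcdha7, Pcdha9 and Pcdha10 carried identical values in all 12 libraries, and 13 alpha genes carried the same 3′UTR value. Pcdha12 had exactly the exon value of Pcdha6 in 4 of 12 libraries, namely the second replicates of pESCs, E9.5 PGCs, E12.5 PGCs and ESC-PGCLCs, and had values of its own in the other 8. Pcdha10 is named here by the nearest RefSeq gene start, since GENCODE gives its symbol as Pcdha11, as it does for the next gene. The introns of an alternate alpha or gamma gene run across the genes that lie downstream of it, and their values overlap in the same way. Each set of identical values was counted once in what follows, which left 91 distinct features in all 12 libraries, among them 11 alpha, 10 beta and 22 gamma exons, unless a count is said to be of listed features.

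The beta exons had the widest range between groups. Their mean level was 19.8% ± 5.59 (SD, n = 2, here and below) for ESCs, 18.4% ± 1.96 for pESCs, 58.0% ± 0.190 for E9.5 PGCs, 37.4% ± 0.218 for E12.5 PGCs, 44.1% ± 1.12 for ESC-PGCLCs and 39.3% ± 0.643 for pESC-PGCLCs. Alpha exons had 30.5% ± 8.89, 29.5% ± 1.41, 50.7% ± 0.326, 35.8% ± 0.932, 41.9% ± 1.06 and 37.3% ± 0.848 in the same order of groups. Gamma exons had the lowest means, at 8.35% ± 3.19, 8.69% ± 1.50, 23.9% ± 0.184, 17.4% ± 0.733, 16.2% ± 0.853 and 14.3% ± 0.449. Over the exons of all genes the means were 19.5% ± 3.09, 19.8% ± 0.708, 33.5% ± 0.298, 21.2% ± 0.253, 26.2% ± 0.243 and 24.1% ± 0.271.

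**Figure D1:**
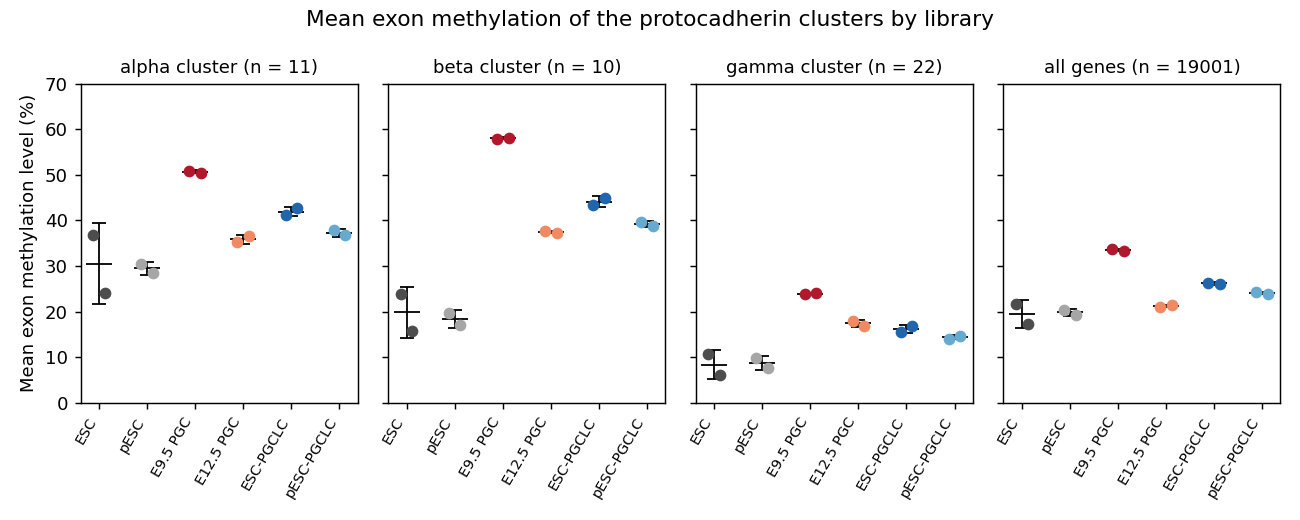
Mean exon methylation level (%, y axis) of the alpha, beta and gamma protocadherin clusters and of all genes, by group (x axis). Each point is 1 library, the dash is the group mean and the bar its SD (n = 2), and n in each title is the number of distinct exons. The beta libraries at E9.5 stand at about 58.0%, above every other library of that cluster, and both kinds of stem cell stand lowest.

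In the order of the groups, E9.5 PGCs were highest in all 3 clusters. In the beta cluster the ESC-PGCLCs followed, then pESC-PGCLCs and E12.5 PGCs, and the nearest libraries of pESC-PGCLCs and E12.5 PGCs were 1.21 points apart. Stem cells lay 13.5 points below the lowest other beta libraries, and ESCs and pESCs overlapped. The alpha cluster had the same order of the germ cell groups, but there the ESC libraries overlapped those of E12.5 PGCs and of pESC-PGCLCs. In the gamma cluster E12.5 PGCs stood second, with only 0.114 points between their nearest library and that of ESC-PGCLCs.

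The beta exons had their highest group mean in E9.5 PGCs at 9 of 10 genes, as did 68.0% of all exons. At E9.5 both libraries were at least 50% methylated at 8 of 10 beta exons, and in ESCs, pESCs and E12.5 PGCs this held for 0 of 10. Every germ cell library, here PGCs and PGCLCs alike, was above every stem cell library at 9 of 10 beta exons, with Pcdhb15 as the exception, and at 5 of 11 alpha and 10 of 22 gamma exons, together 24 of 43 beside 21.0% of all exons, with no test of the difference. Pcdhb22, the last gene of the cluster, was low in stem cells, with 7.15% and 2.94% among ESCs, 8.35% and 6.18% among pESCs, 56.3% and 53.0% for E9.5 PGCs, 35.9% and 36.5% for E12.5 PGCs, 40.1% and 37.8% for ESC-PGCLCs and 34.3% and 37.3% for pESC-PGCLCs. Its ESC and pESC libraries were all below every PGC and PGCLC library. Pcdhb1, at the other end and set apart from the other beta genes in position, had 42.4% and 45.4% for PGCs of E9.5, 28.0% and 28.0% for those of E12.5, 22.9% and 21.9% for ESC-PGCLCs, 27.6% and 26.5% for pESC-PGCLCs, 19.2% and 14.5% for ESCs and 16.1% and 16.1% for pESCs. It had the lowest ESC-PGCLC level of the 10 beta exons, and there the pESC-PGCLC libraries were the higher of the PGCLC pair.

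Pcdhb5 and Pcdhb16 lie inside the cluster and had lower levels in stem cells than in any germ cell library. Pcdhb5 exons had 12.9% and 6.28% among ESCs, 6.22% and 5.87% among pESCs, 58.7% and 61.0% for E9.5 PGCs, 39.5% and 30.9% for E12.5 PGCs, 31.1% and 39.5% for ESC-PGCLCs and 29.7% and 33.4% for pESC-PGCLCs. The E9.5 libraries stood above all others, and the E12.5 and PGCLC libraries overlapped. Pcdhb16 exons had 60.2% and 60.9% for PGCs of E9.5, 28.3% and 35.2% for those of E12.5, 42.7% and 45.9% for ESC-PGCLCs, 40.2% and 33.9% for pESC-PGCLCs, 19.4% and 15.4% for ESCs and 16.4% and 11.9% for pESCs. Pcdhb3 was the exception in the cluster, with 28.6% and 20.6% among ESCs, 24.0% and 21.6% among pESCs, 60.6% and 59.7% for E9.5 PGCs, 41.5% and 45.7% for E12.5 PGCs, 66.3% and 63.4% for ESC-PGCLCs and 58.1% and 54.1% for pESC-PGCLCs, since both ESC-PGCLC libraries lay above both E9.5 libraries there and in no other beta gene.

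The level files also held CpG islands within the cluster, with positions of their own on GRCm38. The island at chr18:37486535-37487214, inside the exon of Pcdhb17 and 1740 bp past its start, had 3.45% and 4.83% in ESCs, 44.6% and 43.5% for E9.5 PGCs, 35.0% and 32.2% for E12.5 PGCs, 34.8% and 33.8% for ESC-PGCLCs and 29.9% and 28.5% for pESC-PGCLCs. The island at chr18:37505888-37506400, inside the exon of Pcdhb20, had 40.9% and 25.3% in ESCs, 68.1% and 74.4% for E9.5 PGCs and 58.6% and 54.8% for E12.5 PGCs. The other beta island, inside the exon of Pcdhb18, held the same values as the exon of that gene and is no separate measurement. In all 3 beta islands every PGC and PGCLC library was above every stem cell library, which held for 10.1% of all CpG islands.

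The mean exon level in stem cells was higher in the alpha cluster than in the others, with the limit that alpha values can include shared constant exons. Among ESCs the alpha means ran from 9.76% at Pcdha5 to 48.6% at the value that Pcdha6 shares with other genes. The shared value of Pcdha6, Pcdha7, Pcdha9 and Pcdha10 was 74.7% and 71.7% for PGCs of E9.5, 57.4% and 55.6% for those of E12.5, 62.5% and 63.7% for ESC-PGCLCs, 60.2% and 59.1% for pESC-PGCLCs, 57.3% and 40.0% for ESCs and 51.8% and 44.8% for pESCs. Pcdha1, the first alternate, had 47.7% and 23.6% among ESCs, 39.9% and 26.3% among pESCs, 50.5% and 51.6% for E9.5 PGCs, 35.2% and 34.5% for E12.5 PGCs, 41.8% and 41.1% for ESC-PGCLCs and 33.2% and 35.1% for pESC-PGCLCs, and its ESC libraries lay on either side of the E12.5 and PGCLC libraries. Pcdha12, the last alternate, had 69.3% and 71.7% for PGCs of E9.5, 46.4% and 55.6% for those of E12.5, 50.8% and 63.7% for ESC-PGCLCs, 49.7% and 47.3% for pESC-PGCLCs, 44.1% and 26.3% for ESCs and 25.2% and 44.8% for pESCs. Replicates of pESCs, E12.5 PGCs and ESC-PGCLCs differed widely, but their second values, like that of E9.5 PGCs, are the shared value of Pcdha6. Each such pair may cover different sites, so its spread cannot be read as one between replicates alone.

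Of the alpha islands, 2 of 5 had every germ cell library above every stem cell library, and of the gamma islands 3 of 4, again beside 10.1% of all islands and without a test. The island downstream of the first exon of Pcdha7, 6348 bp past its start at chr18:36980150-36980458, was well methylated in every library, with 83.6% and 78.5% in ESCs, 82.3% and 83.8% in E9.5 PGCs and 66.2% and 65.5% in E12.5 PGCs. The island over the start of Pcdha5, at chr18:36960438-36960908, was low in ESCs, with 2.79% and 2.75%, and had 26.8% and 25.9% at E9.5. The value shared by the 3′UTRs of 13 alpha genes was 83.3% and 21.4% among ESCs, 71.4% and 52.9% among pESCs, 95.7% and 90.3% for E9.5 PGCs, 88.5% and 69.2% for E12.5 PGCs, 86.3% and 81.6% for ESC-PGCLCs and 84.6% and 80.0% for pESC-PGCLCs, and the ESC replicates were farther apart at this feature than any other replicate pair.

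Gamma exons spanned a wide range. In E9.5 PGCs their means ran from 2.46% at Pcdhgc3 to 71.3% at Pcdhga7, and 14 of 22 were under 10% in both ESC libraries. Pcdhga7, an alternate of the A type, had 70.3% and 72.2% for PGCs of E9.5, 41.7% and 45.2% for those of E12.5, 55.4% and 56.8% for ESC-PGCLCs, 49.3% and 47.6% for pESC-PGCLCs, 55.6% and 30.4% for ESCs and 48.8% and 37.7% for pESCs, the highest gamma level in every group by its mean. Its neighbour Pcdhga6 was the opposite case, with 6.06% and 2.94% among ESCs, 1.33% and 0% among pESCs, 6.06% and 2.56% for E9.5 PGCs, 1.59% and 1.96% for E12.5 PGCs, 6.67% and 0% for ESC-PGCLCs and 1.39% and 0% for pESC-PGCLCs. Pcdhga1, the first gene of the cluster, had 22.4% and 21.2% for PGCs of E9.5, 13.0% and 14.4% for those of E12.5, 16.2% and 15.8% for ESC-PGCLCs, 11.6% and 13.4% for pESC-PGCLCs, 3.26% and 3.16% for ESCs and 5.06% and 4.81% for pESCs, and Pcdhga12, the last alternate, had 1.96% and 1.67% among ESCs, 2.11% and 1.87% among pESCs, 17.0% and 17.2% for E9.5 PGCs, 13.1% and 11.0% for E12.5 PGCs, 4.92% and 6.52% for ESC-PGCLCs and 5.38% and 8.32% for pESC-PGCLCs. At both genes the stem cell libraries were the lowest, and the E9.5 libraries the highest.

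In Pcdhgb7, an alternate of the B type, PGCLCs had the lowest levels. Its exons had 17.4% and 29.9% for PGCs of E9.5, 35.0% and 24.3% for those of E12.5, 4.04% and 3.66% for ESC-PGCLCs, 10.8% and 15.2% for pESC-PGCLCs, 26.8% and 15.2% for ESCs and 22.2% and 20.4% for pESCs. The ESC-PGCLC libraries were the lowest of all 12, and the replicates of ESCs, E9.5 PGCs and E12.5 PGCs differed by 10.7 to 12.5 points.

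**Figure D2:**
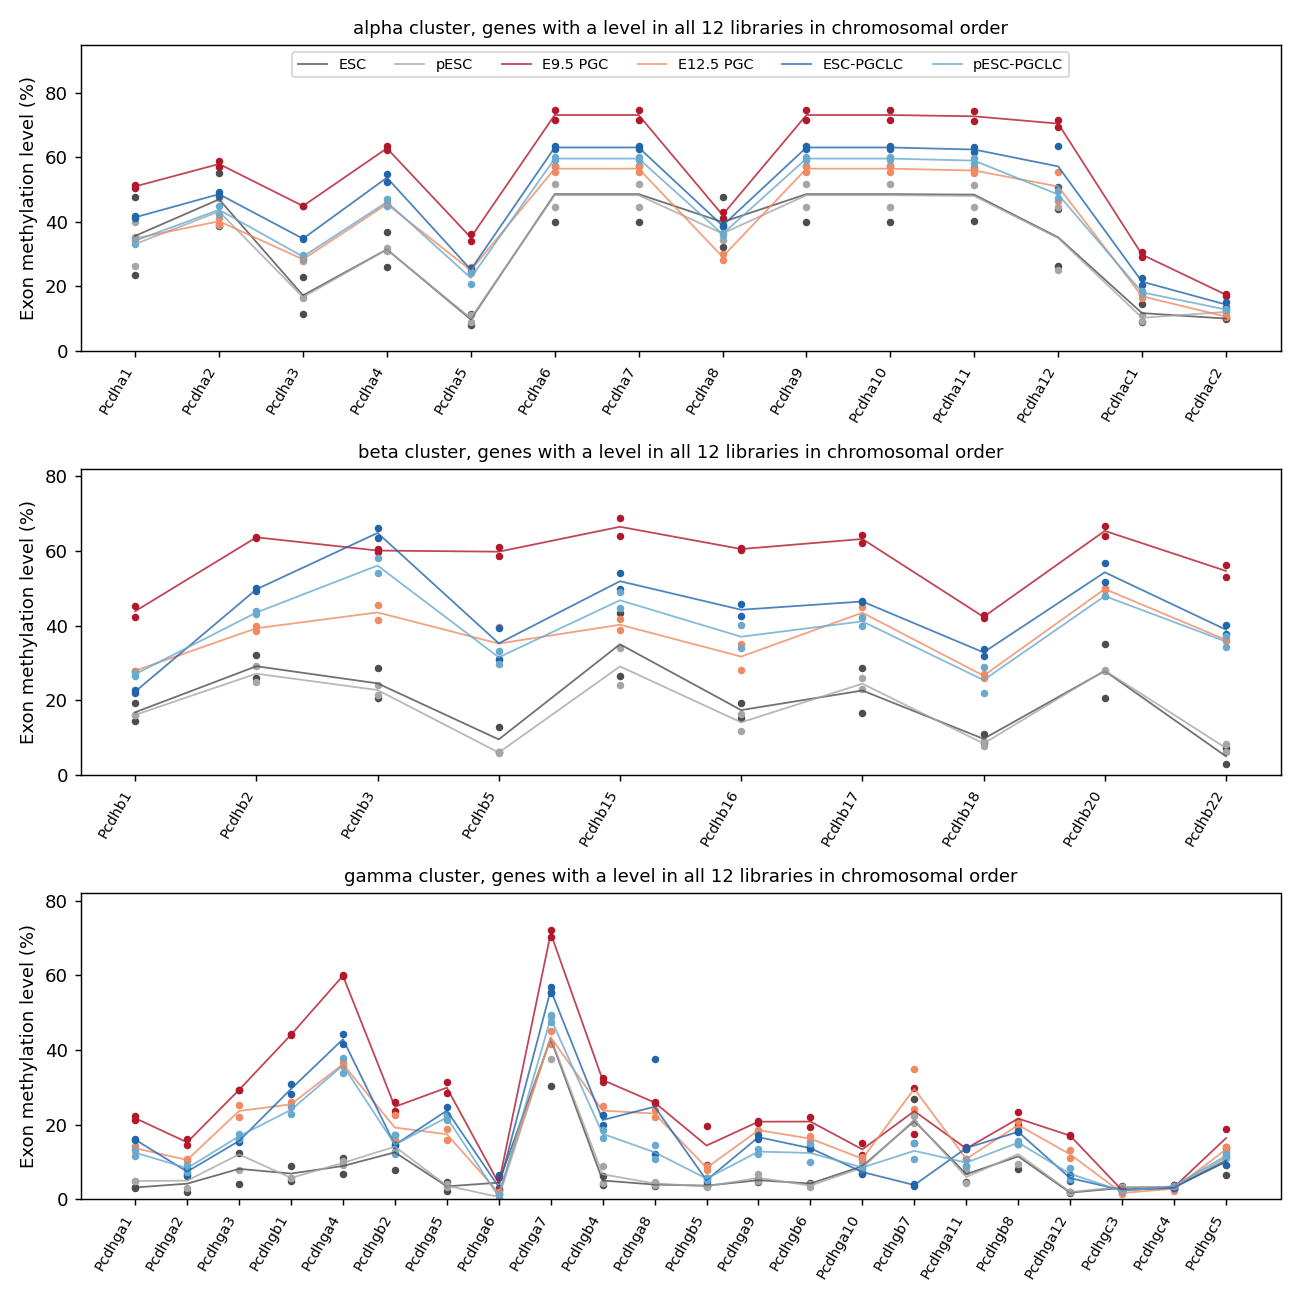
Exon methylation level (%, y axis) of each protocadherin gene with a level in all 12 libraries, in chromosomal order (x axis), in the alpha, beta and gamma clusters. Each point is 1 library and lines join the group means by color. Red E9.5 PGC points lie highest at most genes, with Pcdhb3 and Pcdhgb7 among the exceptions, and Pcdhgc3 and Pcdhgc4 stay low in all groups. Pcdha6, Pcdha7, Pcdha9 and Pcdha10 carry 1 shared series of values.

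The 3 C-type promoters with a level were low in all groups. The Pcdhac1 promoter ranged from 0.925% to 3.19% over the 12 libraries, the Pcdhgc3 promoter from 2.05% to 4.19% and the Pcdhgc4 promoter from 1.19% to 3.45%. For Pcdhac2, whose promoter had no level, the 5′UTR ranged from 1.38% to 3.33%, and Pcdhgc5 had neither a promoter nor a 5′UTR level. The exons of Pcdhgc3 and Pcdhgc4 also stayed low, between 1.51% and 3.56% and between 2.38% and 3.96%. Exons of the other C-type genes were not uniformly low. Pcdhac1 exons had 14.5% and 8.93% in ESCs and 30.5% and 29.2% at E9.5, and Pcdhgc5, the last gene of the gamma cluster, had 13.5% and 6.58% among ESCs, 13.1% and 9.22% among pESCs, 18.8% and 14.1% for E9.5 PGCs, 12.8% and 13.9% for E12.5 PGCs, 11.7% and 9.23% for ESC-PGCLCs and 12.3% and 11.1% for pESC-PGCLCs.

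The alternates with a promoter or 5′UTR level behaved otherwise. Pcdhga4 had the highest of the 5 promoters, with 61.1% and 61.1% for PGCs of E9.5, 37.5% and 36.6% for those of E12.5, 42.2% and 44.7% for ESC-PGCLCs, 34.6% and 38.6% for pESC-PGCLCs, 11.2% and 6.92% for ESCs and 9.55% and 10.4% for pESCs, and its exon level was within 1.32 points of its promoter level in every library. The Pcdhga9 promoter had 1.44% and 2.06% among ESCs, 1.74% and 1.15% among pESCs, 13.6% and 11.2% for E9.5 PGCs, 9.56% and 12.8% for E12.5 PGCs, 8.81% and 7.27% for ESC-PGCLCs and 6.90% and 5.44% for pESC-PGCLCs. The 5′UTR of Pcdhgb1 had 30.8% and 32.9% for PGCs of E9.5, 17.4% and 14.6% for those of E12.5, 16.9% and 12.9% for ESC-PGCLCs, 14.7% and 13.6% for pESC-PGCLCs, 1.21% and 2.42% for ESCs and 1.04% and 3.41% for pESCs. In these 3 features every stem cell library was below every germ cell library, and the same held for the 5′UTRs of Pcdhga2, Pcdhga8 and Pcdhga11. That makes 2 of 5 promoters and 4 of 8 5′UTRs, beside 18.5% of all promoters and 7.86% of all 5′UTRs, with no test. The Pcdhga8 5′UTR stood out for ESC-PGCLCs, with 1.67% and 2.59% among ESCs, 2.68% and 2.90% among pESCs, 28.8% and 25.8% for E9.5 PGCs, 18.2% and 23.9% for E12.5 PGCs, 41.1% and 62.5% for ESC-PGCLCs and 15.7% and 16.1% for pESC-PGCLCs, where both ESC-PGCLC libraries were above all others and were themselves far apart. The Pcdhga11 promoter had a level in 10 libraries, with 42.0% and 25.2% in ESCs and 64.2% and 60.9% at E9.5, and none in ESC-PGCLCs.

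Over the 4 gamma promoters, the mean was 3.89% ± 0.740 for ESCs, 4.15% ± 0.417 for pESCs, 19.9% ± 0.434 for E9.5 PGCs, 13.4% ± 0.487 for E12.5 PGCs, 14.5% ± 0.205 for ESC-PGCLCs and 12.2% ± 0.0033 for pESC-PGCLCs. Differences between these means came from Pcdhga4 and Pcdhga9, while Pcdhgc3 and Pcdhgc4 were low throughout. The groups did not overlap between E9.5 and E12.5, in either induction or between the PGCLC groups, and each of these comparisons had the smallest p that an exact two-sided permutation test of 2 against 2 libraries allows, 0.33. The alpha promoter mean is the level of Pcdhac1 alone.

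**Figure D3:**
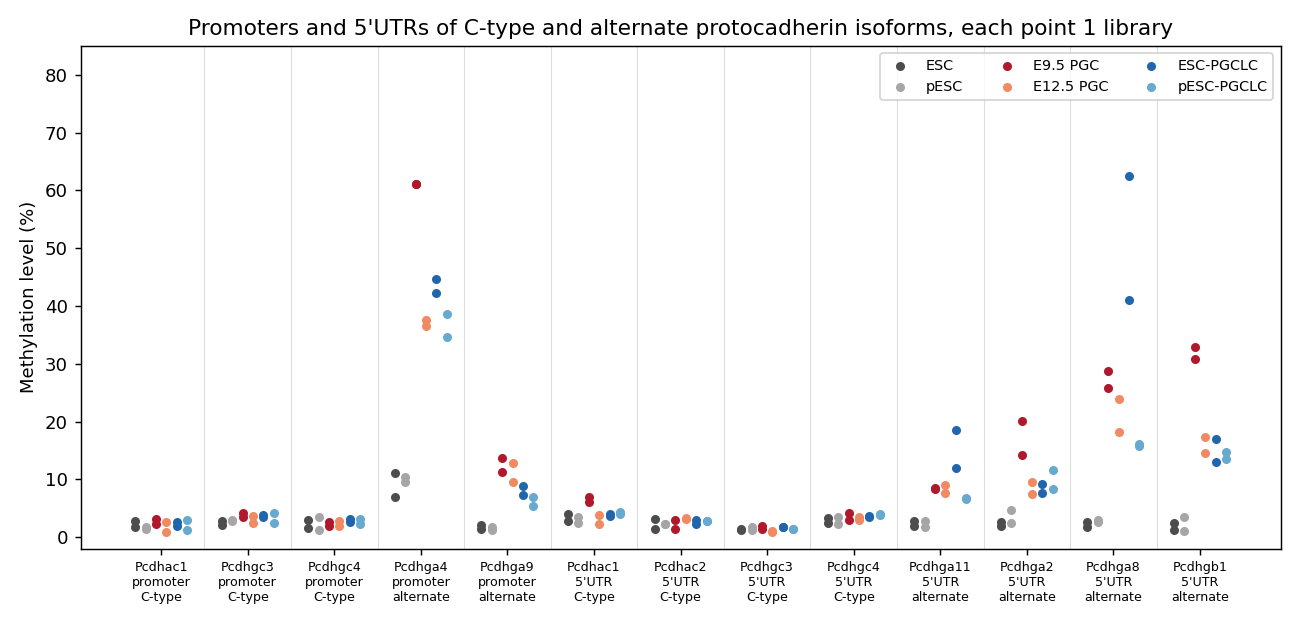
Methylation level (%, y axis) of the 5 promoters and 8 5′UTRs with a level in all 12 libraries, by gene and isoform type (x axis), each point 1 library colored by group. The C-type features stay at or below 6.96% in all libraries, while Pcdhga4 reaches 61.1% at E9.5 and the Pcdhga8 5′UTR reaches 62.5% in an ESC-PGCLC library.

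The first comparison asked whether the absence of a paternal genome changed the clusters in stem cells. Levels were fitted with limma over all features on the log2 odds scale, and a feature was called when its Benjamini-Hochberg adjusted p was below 0.05 and its group means differed by at least 10 points. Of 118 listed protocadherin features tested between pESCs and ESCs, 0 were called, as were 0.0% of all features. An unadjusted p under 0.05 was found for 1.39% of all features and for 1 of the 118, the Pcdhga6 exon, whose level was 3.83 points lower in pESCs. This fit held 4 libraries, and the median SE of a protocadherin difference was 0.37 on the log2 odds scale, where it was 0.13 in the fit of PGCs and PGCLCs. The exon means differed between pESCs and ESCs by -0.948 points in the alpha cluster, -1.43 in beta and 0.337 in gamma, all less than the SD of the ESC replicates.

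E9.5 PGCs and stem cells were not part of the same fit and are compared here without a test. Both E9.5 libraries were at least 10 points above both ESC libraries at 7 of 11 alpha, 10 of 10 beta and 11 of 22 gamma exons, which is 28 of 43 against 38.6% of all exons. Against pESCs the counts were 8, 10 and 11, or 29 of 43, against 42.1% of all exons. The median difference between E9.5 PGCs and ESCs was 36.5 points over beta exons, 24.3 over alpha and 13.7 over gamma, and 9.36 over all exons. In terms of cluster means, E9.5 PGCs had 2.93 times the ESC level in beta, 2.86 times in gamma and 1.66 times in alpha exons, where all exons had 1.72 times.

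Between E9.5 and E12.5, a window in which PGCs are known to lose DNA methylation across the genome, protocadherin features fell. Of 111 listed features 45 were called, all lower at E12.5, which is 37 of 91 distinct features, a smaller share than the 49.6% of all features that were called. By class, 24 of 43 distinct exons were called, a share near the 47.6% of all exons. All 10 beta exons were called lower, as were 10 of 11 alpha exons and 4 of 22 gamma exons, Pcdhga4, Pcdhga5, Pcdhga7 and Pcdhgb1. As said above, the 11 alpha exons are not all separate measurements. A gamma exon without a call had not always kept its level. Those of Pcdhga1 and Pcdhga12 were lower in both E12.5 libraries than in both E9.5 libraries, while that of Pcdhgb7 had the higher mean at E12.5. The Pcdhb16 exon changed most among exons, with a difference of -1.69 (SE 0.20) on the log2 odds scale and -28.8 points (limma, Benjamini-Hochberg adjusted p = 0.000501).

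The intron of Pcdhb2 went from 75.5% and 74.2% to 41.8% and 44.9%, a difference of -31.5 points (adjusted p = 8.94e-05, limma), the largest among called introns. In the other classes, the Pcdhga4 promoter differed by -24.1 points, the Pcdhgb1 5′UTR by -15.9 and the Pcdha6 3′UTR by -16.0. Of the C-type features, the exon of Pcdhac1 fell by 12.9 points and no promoter, 5′UTR or gamma exon was called. The C-type promoters and 5′UTRs, the exons of Pcdhgc3 and Pcdhgc4 and the exon of the alternate Pcdhga6 were below 10% in every library. They could not differ by 10 points, so the lack of a call there was fixed by the rule. Over all features the median change was -0.86 on the log2 odds scale and over listed protocadherin features -0.84. After centring each library on its median, 4 features were called, with the Pcdhb16 and Pcdhga7 exons and the Pcdhb2 intron lower and the Pcdha5 exon higher, which on the scale as measured had fallen by 10.2 points. In all centred counts the 10-point rule was still applied to the levels before centring. A feature that kept its level while others changed could therefore not be called. At E12.5 the exon means stood at 64.5% of their E9.5 level in beta, 70.7% in alpha and 72.8% in gamma, and over all genes at 63.4%.

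**Figure D4:**
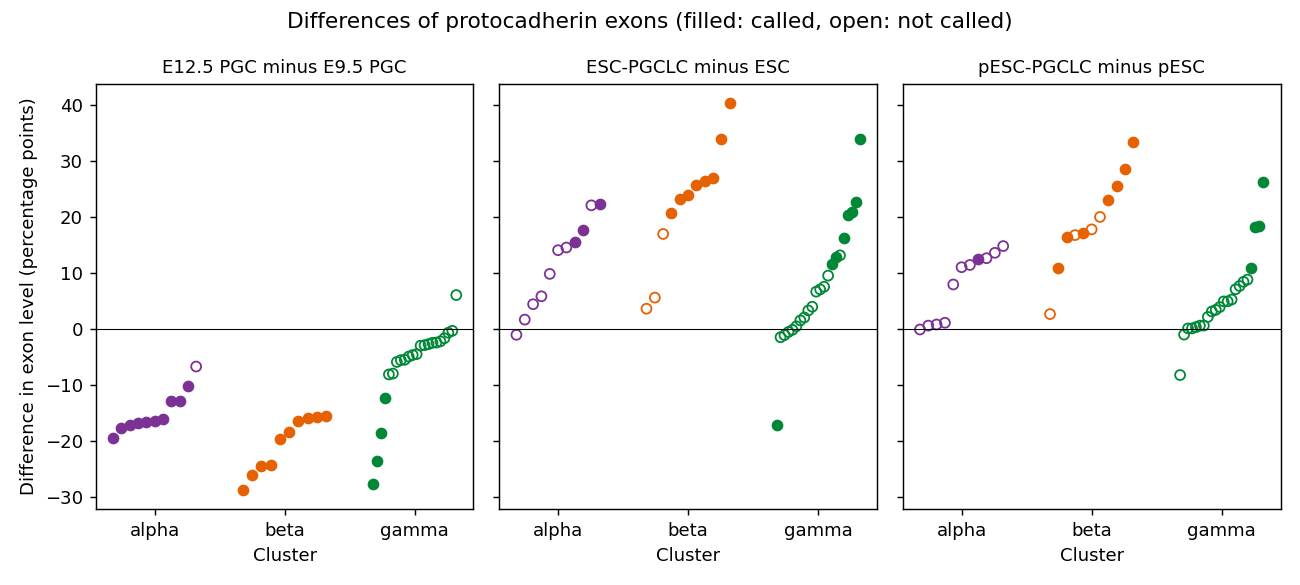
Difference in exon level between groups (percentage points, y axis) for each distinct protocadherin exon, by cluster (x axis) and sorted within it, for E12.5 minus E9.5 PGCs, ESC-PGCLCs minus ESCs and pESC-PGCLCs minus pESCs. Filled points were called and open points were not. Beta exons are all lower at E12.5 and all higher in PGCLCs, and the filled gamma point below 0 in the middle panel is Pcdhgb7.

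Induction of PGCLCs from ESCs was accompanied by higher levels, most often at beta exons. Of 113 listed features 23 were called, 22 higher and 1 lower, against 14.6% of all features. By class, 19 of 44 distinct exons were called, a larger share than the 18.0% of all exons, a difference that was not tested. They were 8 of 11 beta exons, 3 of 11 alpha exons (Pcdha3, Pcdha4 and Pcdha5) and 8 of 22 gamma exons. The exons of Pcdhgb6, Pcdhga12 and Pcdhac1 also had an adjusted p below 0.05 (limma). They were higher by only 9.46, 3.90 and 9.76 points and so were not called. The counts per cluster thus depend on the 10-point rule as well as on the test. The Pcdhb3 exon rose by 40.3 points, with a difference of 2.46 (SE 0.26) on the log2 odds scale (limma, adjusted p = 0.000702), and Pcdhb22 rose by 33.9 points. In the gamma cluster the exons of Pcdhga1, Pcdhga4, Pcdhga5, Pcdhga8, Pcdhga9, Pcdhgb1 and Pcdhgb4 rose, and that of Pcdhgb7 fell by 17.2 points (adjusted p = 0.00303, limma). The Pcdhga4 promoter rose by 34.4 points, and the 5′UTRs of Pcdhga8, Pcdhgb1 and Pcdhga11 by 49.6, 13.1 and 12.9 points. The ESC-PGCLC replicates were far apart at the Pcdhga8 exon, with 12.2% and 37.5%, both above the ESC values of 3.48% and 4.49%. That exon was no longer called without ESC-PGCLC replicate 2, the higher of them, or without ESC replicate 2.

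Induction from pESCs gave 15 called features of 113, all higher, against 9.66% of all features. By class, 12 of 44 distinct exons were called, against 11.7% of all exons, and these were 7 of 11 beta exons, 4 of 22 gamma exons (Pcdhga4, Pcdhga5, Pcdhgb1 and Pcdhgb4) and the alpha exon of Pcdha5. The gamma exons of Pcdhga1, Pcdhga9, Pcdhga12 and Pcdhgb6 had an adjusted p below 0.05 (limma) as well. They were higher by 7.60, 7.02, 4.86 and 8.74 points and missed a call by the 10-point rule alone. Pcdhb3 rose by 33.3 points (limma, adjusted p = 0.00208) and Pcdhb22 by 28.5. The exons of Pcdhb2, Pcdhb3, Pcdhb5, Pcdhb16, Pcdhb18 and Pcdhb22 were called in both inductions. The exon of Pcdhb1 passed the test from pESCs, where it differed by 10.9 points, and from ESCs it differed by 5.53 points.

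The median change over all features was 0.26 on the log2 odds scale from ESCs and 0.17 from pESCs, and over listed protocadherin features 0.79 and 0.63. After centring on the library medians, 15 and 11 features were called, among them 5 beta exons in both inductions, those of Pcdhb3, Pcdhb5, Pcdhb16, Pcdhb18 and Pcdhb22. The count from ESCs was 49 listed and 34 distinct features without ESC replicate 1, the more methylated ESC library, and 22 listed features without ESC replicate 2. The count from pESCs was 8 without pESC-PGCLC replicate 1.

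Set against PGCs of the embryo, the PGCLCs lay below E9.5 PGCs. Between ESC-PGCLCs and E9.5 PGCs 27 of 111 listed features were called, 26 lower and 1 higher, against 29.8% of all features. Exons made up 19 of the 24 distinct calls, with 8 of 10 beta, 8 of 22 gamma and 3 of 11 alpha exons, against 34.4% of all exons. The higher feature was the Pcdhga8 5′UTR, by 24.5 points (limma, adjusted p = 0.0256), a call that was lost without either E9.5 library. The Pcdhb5 exon was 24.5 points below E9.5 PGCs (adjusted p = 0.00528, limma) and Pcdhb1 21.5 points. Between pESC-PGCLCs and E9.5 PGCs 32 features were called, all lower and 29 distinct, against 40.3% of all features. They included 9 of 10 beta, 9 of 11 alpha and 7 of 22 gamma exons, together 25 of 43 against 42.2% of all exons. After centring, 5 and 8 features were called, and the count for ESC-PGCLCs was 13 with all 12 libraries in 1 fit.

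Fewer features were called against E12.5 PGCs. ESC-PGCLCs had 8, 7 higher and 1 lower, where 22.8% of all features were called. Exons made up 6 of the 8, namely those of Pcdhb2, Pcdhb3, Pcdhb15, Pcdhb16 and Pcdhga7, which were higher, and that of Pcdhgb7, which was 25.8 points lower (limma, adjusted p = 0.00395), and 21.8% of all exons were called. The pESC-PGCLCs had 1 called feature against E12.5 PGCs, the Pcdhb3 exon, 12.5 points higher (limma, adjusted p = 0.0312), against 7.1% of all features. The comparisons with E9.5 and with E12.5 PGCs share the PGCLC libraries. For ESC-PGCLCs the count was 2 after centring, 3 with all 12 libraries in 1 fit and 4 without E12.5 replicate 1. After centring, with all 12 libraries or with a replicate block, the call of Pcdhb3 in pESC-PGCLCs was lost, as it was when any of the 4 libraries was left out.

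Cell origin was compared last. Between pESC-PGCLCs and ESC-PGCLCs 0 of 111 listed features were called by limma, against 0.0948% of all features, and 25 of 91 distinct features had an unadjusted p under 0.05, as did 19.4% of all features. The mean was lower in pESC-PGCLCs at all 11 alpha exons, 9 of 10 beta exons and 13 of 22 gamma exons, and at 71.1% of all exons, with a median difference of -3.45 points over alpha, -5.77 over beta and -1.56 over gamma exons, and the cluster means of the groups did not overlap. An exact permutation test of the cluster means gave p = 0.33, again the smallest possible. Over the exons of all genes the median difference was -0.815 points. Without ESC-PGCLC replicate 1, 2 features were called, the 5′UTRs of Pcdhga8 and Pcdhga11, both lower in pESC-PGCLCs.

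The interaction of origin and induction, which asks whether the change from pESCs to PGCLCs differed from that from ESCs, gave 0 calls by limma among 113 features, against 0.0365% of all features. An unadjusted p under 0.05 was found for 2.96% of all features and for 4 of the 113, a share near it, namely the exons of Pcdhga1 and Pcdhgb7 and the 5′UTRs of Pcdhga8 and Pcdhga11. The Pcdhga8 5′UTR had the largest of these differences, -36.5 points (adjusted p = 0.764, limma). Apart from the C-type isoforms, the first and last alternate of each cluster and the largest changes per class, genes were singled out after their values were seen, among them Pcdhb3, Pcdhb5, Pcdhga6, Pcdhga7, Pcdhga8 and Pcdhgb7.

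Position and base composition were set beside the levels. In the 1000 bp around the gene start, the ratio of observed to expected CpG sites had a median of 0.682 in alpha, 0.613 in gamma and 0.379 in beta genes. The 8 beta genes without a level had a median of 3 MspI sites in their first exon and the 14 with a level a median of 5, and their CpG ratios were alike, at 0.389 and 0.379. Within the gamma cluster, exons nearer to the 3′ end had lower levels at E9.5, with Spearman's rho of -0.56 and Pearson's r of -0.46 between order and level over 22 exons, against -0.06 and -0.03 in ESCs. In the other groups rho was -0.36 for E12.5 PGCs, -0.50 for ESC-PGCLCs, -0.46 for pESC-PGCLCs and -0.13 for pESCs. The C-type genes lie last in this order, and at E9.5 their gamma exons had a mean of 7.38% against 26.5% for the alternates. Within the beta cluster rho was 0.01 at E9.5 and -0.28 in ESCs over 10 exons. Gamma introns are nested, and at E9.5 went from 24.4% and 24.2% at Pcdhga1 to 7.03% and 5.37% at Pcdhga12. Gamma genes share constant exons, and genes are not independent replicates, so these values are descriptions.

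Genes that act on the clusters, and protocadherins outside them, were followed as lists. For these lists, rose and fell mean that a feature was called. Of 8 boundary and loop factors, 8 had a tested promoter and 7 tested exons. The promoters of Ctcf, Rad21, Smc3, Stag1, Nipbl and Wapl had means below 10% in every group. By the 10-point rule they could not be called. Ctcf, which encodes the boundary protein, had a promoter mean of 1.66% in ESCs and 2.19% at E9.5. Its exons had 10.7% and 13.5% in ESCs, 33.9% and 34.9% at E9.5, 16.7% and 20.2% at E12.5 and 25.6% and 25.9% in ESC-PGCLCs, and were called lower at E12.5 and higher on induction from ESCs. From E9.5 to E12.5 the promoter of 1 of the 8 fell, that of the X-linked cohesin gene Smc1a, from 61.6% and 64.8% to 41.3% and 42.5%, where 32.2% of all promoters were called, and the exons of 2 of 7 fell, those of Ctcf and of the cohesin loader gene Nipbl. On induction from ESCs 1 promoter rose, that of the X-linked cohesin gene Stag2, from 1.47% and 1.61% to 13.0% and 13.4%, beside 12.9% of all promoters called, and the exons of 2 of 7 rose, those of Ctcf and Stag2. Of 10 genes of DNA methylation and silencing, 2 promoters fell from E9.5 to E12.5, those of Dnmt3a and its cofactor Dnmt3l. The promoters of Uhrf1, Tet1, Tet2, Tet3, Smchd1 and Setdb1 had means below 10% in every group and could not be called either. At exons 8 of the 10 fell, those of Dnmt1, Dnmt3a, Dnmt3l, Setdb1, Tet1, Tet2, Tet3 and Uhrf1, where 47.6% of all exons were called. The promoter of 1 fell in both inductions, Dnmt3b, from 13.6% and 12.7% in ESCs to 1.86% and 1.23% in ESC-PGCLCs, and on induction from ESCs the exons of 2 rose, Dnmt1 and Tet1. For pESCs, 9.23% of all promoters were called on induction.

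Of 12 protocadherins outside the clusters, 10 had a tested promoter. In both inductions 2 of these rose, those of Pcdh12, an endothelial protocadherin, and of the X-linked Pcdh19, and the promoter of Pcdh12 fell from E9.5 to E12.5. Of all promoters 12.9% were called on induction from ESCs, 9.23% from pESCs and 32.2% from E9.5 to E12.5. Pcdh12 had 31.6% and 15.8% in ESCs, 76.1% and 76.8% for E9.5 PGCs and 29.3% and 36.1% for E12.5 PGCs. The other 8 promoters had means from 1.14% to 8.01% in every group and so could not be called. At exons, 5 of the 12 were called lower from E9.5 to E12.5, beside 47.6% of all exons called. On induction from ESCs 2 of the 12 were called higher and 1 lower, beside 18.0% of all exons called. There 8 of 11 beta exons were called higher. The median difference in that induction was 0.07 points over the 12 exons, against 23.8 points over beta exons. Among the 12, the exons of Pcdh7, Pcdh8, Pcdh10, Pcdh17 and Pcdh20 had means below 10% in every group. They could not differ by 10 points and so could not be called.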

How the data were processed

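DNA methylation was measured by RRBS in 12 mouse libraries, 2 in each of 6 groups, grouped as the labels give them. Per the labels, the reads were processed with Bismark 0.16.3 and Bowtie2 against mm10 (GRCm38). The authors deposited 1 methylation level per feature as a fraction (methylated over all CpG calls, corrected for non-conversion), shown here in percent. The coverage minimum and the definition of a promoter are not given in the sources used here. The files hold no read counts, so the depth behind a level is unknown and no interval or detection limit was given.

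Genes were matched by Ensembl identifier to GENCODE M21. Levels were transformed to log2((level + 0.01) / (1 - level + 0.01)) and fitted with limma 3.58.1 (R 4.3.3) over all features that had levels in each library fitted. The fits held the 4 stem cell libraries, the 8 libraries of PGCs and PGCLCs, and the 8 libraries of stem cells and PGCLCs. A feature was called at a Benjamini-Hochberg adjusted p below 0.05 and a difference of at least 10 points. The method was tested on simulated data. Cluster means were compared by exact two-sided permutation tests (Python 3.11.15, numpy 2.4.6, pandas 2.3.3, scipy 1.17.1), and matplotlib 3.10.9 drew the plots.

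The members and lists were chosen with earlier results of these data known. The genes named by rule were the C-type isoforms and Pcdhb1, the first and last alternate of each cluster, the promoters with the highest and lowest mean, the largest called promoter changes, and per other class the largest called change from E9.5 to E12.5 and in the interaction. Exon means, and counts of equal values once, were added after seeing that no beta promoter had a level in all 12 libraries, so that the mean over beta promoters could not be computed. The lists of other genes were 8 boundary and loop factors, 10 genes of DNA methylation and silencing and 12 protocadherins outside the clusters. The alternatives were an offset of 0.1, untransformed levels, centred libraries, all 12 libraries in 1 fit, gene features alone, partly covered features, a replicate block, medians in place of means, every feature with a level, and each library left out in turn.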

Additional observations from a re-analysis of the deposited data

How the results depend on the processing

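Of 299 recomputed values, 267 kept their direction and stayed close to the value reported, 18 counts moved by more than 1.5 times and 14 means changed sign. Centring the libraries gave 4 called features for E12.5 against E9.5 PGCs, 15 for ESC-PGCLCs against ESCs, 5 and 8 for ESC-PGCLCs and pESC-PGCLCs against E9.5 PGCs, and 2 and 0 against E12.5 PGCs. With all 12 libraries in 1 fit, ESC-PGCLCs had 13 calls against E9.5 and 3 against E12.5 PGCs, and pESC-PGCLCs had 0 against E12.5 PGCs. The labels do not say whether libraries with the same replicate number were handled together. The deviations of replicates from their group mean correlated at 0.518 between ESCs and pESCs, and at -0.06 to 0.183 between all other pairs of groups. Whether ESC and pESC libraries share a batch by number was not tested. With a replicate block the counts were 58 for E12.5 against E9.5 PGCs, 45 for pESC-PGCLCs against E9.5 PGCs and 0 for pESC-PGCLCs against E12.5 PGCs, while the other counts did not change. With every promoter that had a level, the gamma promoter mean differed by -0.291 points between pESCs and ESCs and by 7.13 points between pESC-PGCLCs and ESC-PGCLCs, where the Pcdhga11 promoter enters for 1 group alone.

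Leaving out 1 library at a time, the counts ranged from 0 to 0 for pESCs against ESCs, 45 to 57 for E12.5 against E9.5 PGCs, 16 to 49 and 8 to 12 for the inductions from ESCs and pESCs, 18 to 29 and 31 to 37 for ESC-PGCLCs and pESC-PGCLCs against E9.5 PGCs, 4 to 11 and 0 to 0 against E12.5 PGCs, 0 to 2 between the PGCLC groups and 0 to 0 for the interaction. The differences between pESCs and ESCs changed sign, from -7.23 to 5.34 points over alpha, -5.39 to 2.53 over beta and -1.92 to 2.60 over gamma exons, and from -0.255 to 0.792 over gamma promoters. The Pcdhac1 promoter changed sign in the inductions, from -0.500 to 0.453 and from -0.201 to 1.37 points, and between the PGCLC groups, from -0.945 to 0.625. The E12.5 minus E9.5 differences ranged from -15.5 to -14.2 over alpha, -20.8 to -20.4 over beta and -7.03 to -6.00 over gamma exons. For ESC-PGCLCs minus ESCs they ranged from 5.18 to 17.8, 20.4 to 28.3 and 5.57 to 10.1 in the same order of clusters. The cause of these shifts was not tested. Without read counts, the sampling error of a single level cannot be given, 8 beta genes had no level, and 5 promoters stand for 58 genes.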
